A study of Mus musculus with 8 samples.

Results

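The genes described here build and serve the protein import system of mitochondria. They were chosen by name, as every gene whose single annotated symbol begins with Tomm or Timm, together with the chaperones Hspd1, Hspe1 and Hspa9, the proteases Lonp1 and Clpp, the porins Vdac1, Vdac2 and Vdac3 and the adenine nucleotide carriers Slc25a4 and Slc25a5. The rule gave 34 genes, measured by 80 probe sets, of 18193 genes in all. Their RNA was measured in C2C12, an established mouse myoblast line that withdraws from the cell cycle and fuses into myotubes when serum is reduced. One group of 4 cultures carried a lentivirus encoding scrambled RNA and the other group of 4 carried a lentivirus encoding siRNA against DOR, the product of Trp53inp2. Per the labels' protocols, the virus was used at an moi of 100 in both groups, cells were expanded during 5 to 7 days and sorted by GFP (93 to 99% positive), and 5% horse serum was then given for 4 days. Other labels call the cells confluent myoblasts, so the stage at harvest is not settled by them, and they do not say how the biological replicates were derived from the line. With 1 line throughout, the p-values below measure the spread between these cultures.

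Nearly all mitochondrial proteins are made in the cytosol and enter the organelle through the TOM complex of the outer membrane. From there the TIM23 complex carries proteins with a cleavable presequence into the matrix, where mitochondrial Hsp70 pulls them in and the Hsp60 and Hsp10 chaperonin folds them. Small Tim proteins escort hydrophobic carriers through the intermembrane space to the TIM22 complex, which inserts them into the inner membrane. LON and ClpP degrade damaged matrix proteins, and together with Hsp60 they are known as targets of the mitochondrial unfolded protein response. Muscle cells are known to enlarge their mitochondrial content when they differentiate.

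The label of the knockdown arrays was borne out by the target. The brighter of its 2 probe sets had a mean log2 value of 11.35 ± 0.29 in the scrambled arrays and 9.51 ± 0.31 in the DOR siRNA arrays (SD, n = 4 each), so Trp53inp2 fell by 1.83 ± 0.17 on the log2 scale (SE, limma adjusted p = 0.00087). Its second, dimmer probe set was not called (0.14 ± 0.08, limma adjusted p = 0.519). Of the markers of the muscle line, Myod1 and Des were bright, with means of 11.51 and 11.46 and of 12.93 and 12.86 in scrambled and DOR siRNA arrays. Pax7 was dim, with means of 5.07 and 5.51. The mean log2 level over the 2 adipocyte, 4 macrophage and 3 endothelial markers measured stayed under the median of all values, 6.18, on each array. Single markers came near or above it, with means of 6.26 in both groups for Adgre1 and of 6.18 and 6.16 for Kdr. Of 14 myotube markers 9 fell and none rose (12 fell in the fit that pairs the cultures by replicate number), and their mean log2 level lay between 11.88 and 12.32 in the scrambled arrays and between 10.75 and 11.31 in the DOR siRNA arrays. Of 11 myoblast and proliferation markers 6 rose and none fell (7 rose with pairing), with mean levels of 8.97 to 9.12 and of 9.45 to 9.57. The 6 were the proliferation genes Ccnd1, Tk1, Aurkb, Birc5, Mki67 and Top2a. The myoblast genes Myod1, Myf5, Pax7, Des and Cdh15 were not called without pairing, with differences from -0.07 for Des to 0.45 for Myf5. Myf5 was the marker that pairing added (limma adjusted p = 0.0436), and Pax7, with a difference of 0.44, was not called there (limma adjusted p = 0.0535). Of 5 fibroblast markers Pdgfra rose, and with pairing 2 did. The mean level of that list was 8.93 to 9.05 in the scrambled arrays and 9.06 to 9.42 in the DOR siRNA arrays, without overlap. The groups thus differed in their myotube and proliferation transcripts. Of the fibroblast list Pdgfra (0.57) was called in both fits and Dcn (0.56) only with pairing. Col3a1 (0.20), Col1a1 (0.04) and Thy1 (-0.13) were called in neither. The part of these differences in the values below was not tested. Fewer cells of a kind and less RNA per cell cannot be told apart in such bulk samples.

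None of the 34 genes passed the test between the groups. Each gene was read from its brightest probe set, by mean over 8 arrays, and a call was an adjusted p under 0.05 in limma's moderated test over 45037 probe sets. By that rule 0 members rose and 0 fell, where 4.56% of all 18193 genes were called, 3.11% upward and 1.45% downward. At an unadjusted p under 0.05 there were 3 members lower (Timm10, Hspa9 and Timm9) and 0 higher, against 6.55% and 11.5% of all genes. The smallest adjusted p among the members was 0.215. The limma fit that pairs the cultures by replicate number also called 0, with 8.25% of all genes called. Its smallest adjusted p among the members was 0.084, for Hspa9. The median difference, DOR siRNA minus scrambled, was -0.054 log2 units, beside 0.0152 over all genes. Differences ran from -0.36 to 0.13, with 23 below 0 and 11 above 0, a share below 0 of 67.6% against 45.1% of all genes.

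The fit also bounded the size of these differences, as read from the brightest probe sets. The 95% interval of the difference, from the limma fit, lay within 0.5 log2 units of 0 for 32 of the 34 genes. The exceptions were Lonp1, with a lower limit of -0.88, and Hspa9, with one of -0.53. Some dimmer probe sets had limits further from 0, up to 0.66 for Slc25a4 and down to -1.08 for Hspa9. On simulated arrays of the same size, with 200 probe sets changed, the test found 47.4% of changes of 0.5 log2 units and 90.8% of changes of 1. Far more probe sets, 1452, were called in the data. The cutoff set by the adjustment depends on that number, so these shares need not hold for the data. Smaller shifts of single genes could have been missed.

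**Figure D1:**
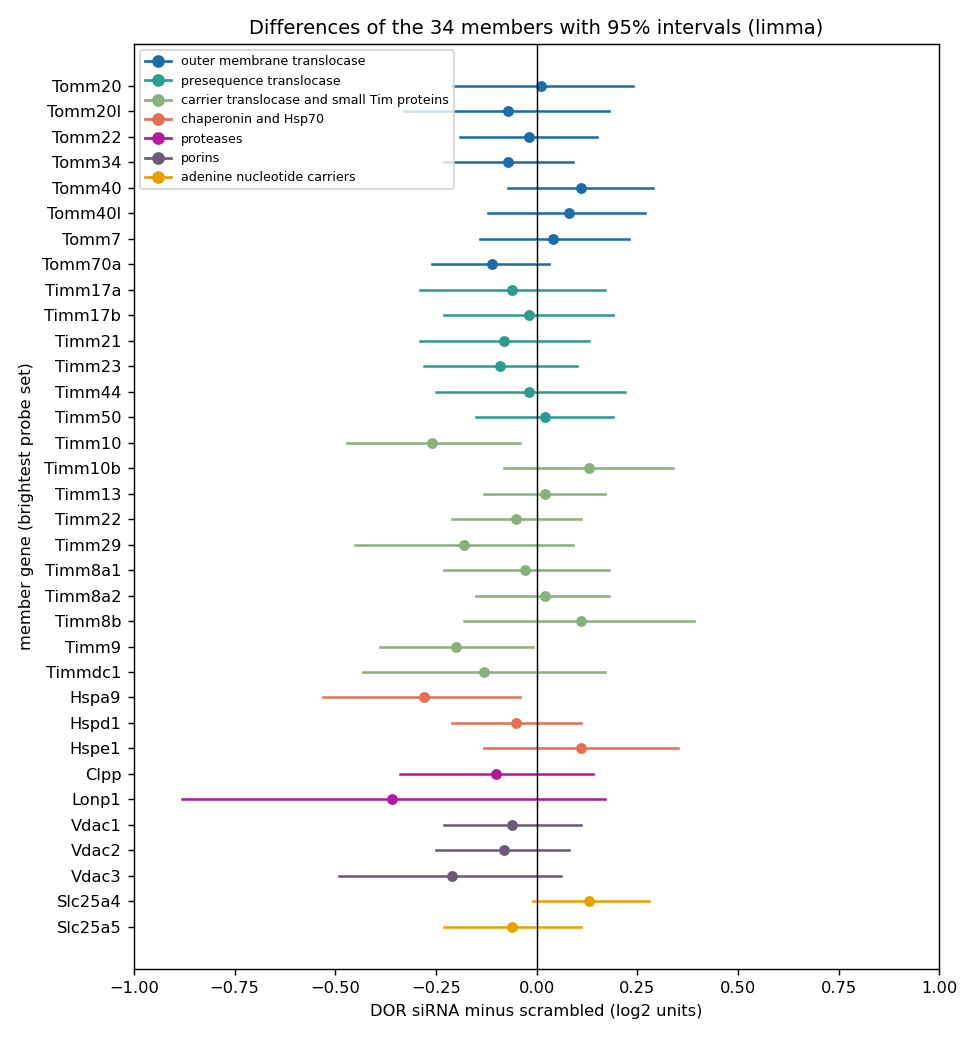
Each point is the difference of 1 member gene, DOR siRNA minus scrambled, in log2 units on the horizontal axis, and each line its 95% interval from the limma fit (4 arrays per group, colour by role). The differences run from -0.36 for Lonp1 to 0.13 for Slc25a4 and Timm10b, and 31 of the 34 intervals include 0, those of Timm10, Timm9 and Hspa9 being the exceptions.

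The translocase of the outer membrane had differences balanced around 0. Of its 8 measured members 4 had differences below 0 and 4 above, with a median of -0.00339 and a range from -0.11 to 0.11, and none was called. Tomm20, the main receptor for presequences, read 12.63, 12.77, 12.88 and 13.05 log2 units in scrambled arrays 1 to 4 and 12.86, 12.78, 12.73 and 13.02 in DOR siRNA arrays 1 to 4. On this brightest probe set the groups overlapped throughout, and both arrays numbered 4 were the highest of their group. Its difference was 0.01 ± 0.10 (SE, limma adjusted p = 0.978). The dimmest of the 6 probe sets of Tomm20 was higher by 0.19 ± 0.08, without overlap but not called (limma adjusted p = 0.269). The others differed by -0.02 to 0.03. Tomm22, the central receptor that holds the complex together, differed by -0.02, and Tomm7, a small subunit, by 0.04.

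Tomm70a, the receptor that takes up carrier precursors from cytosolic chaperones, had the smallest p of the group. It read 10.34, 10.42, 10.44 and 10.45 on the log2 scale with scrambled RNA and 10.30, 10.31, 10.31 and 10.29 with DOR siRNA. The 4 knockdown values lay just under the 4 scrambled ones, as they did for another of its 5 probe sets, and all 5 probe sets of the gene differed in the same direction. The difference was only -0.11 ± 0.07 (SE), a 1.08-fold decrease that did not pass (limma adjusted p = 0.49). Tomm40, the pore of the complex, read 9.25, 9.33, 9.22 and 9.14 with scrambled RNA and 9.49, 9.28, 9.37 and 9.24 with DOR siRNA, with overlap and a difference of 0.11 ± 0.08 (limma adjusted p = 0.604). Its paralog Tomm40l differed by 0.08, and Tomm34, a cytosolic protein that assists precursors, by -0.07. Tomm20l was dim, with means of 5.20 and 5.12, under the median of all values, and was not shown to be above background.

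No member of the presequence translocase of the inner membrane was called. Its 6 members, Timm17a, Timm17b, Timm21, Timm23, Timm44 and Timm50, had a median difference of -0.0378 and a range from -0.09 to 0.02. Timm23, the channel subunit, read 11.72, 11.98, 11.78 and 11.75 on the log2 scale with scrambled RNA and 11.87, 11.66, 11.71 and 11.64 with DOR siRNA. Scrambled array 2 stood highest and the groups overlapped (-0.09 ± 0.09, limma adjusted p = 0.716). Timm21, which links the complex to the TOM complex and the respiratory chain, read 8.83, 8.93, 8.66 and 8.76 with scrambled RNA and 8.90, 8.78, 8.59 and 8.60 with DOR siRNA, again with overlap (-0.08 ± 0.09, limma adjusted p = 0.798). Timm44, which tethers mitochondrial Hsp70 to the channel, and Timm50, the receptor of the complex, differed by -0.02 and 0.02.

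Among the small Tim proteins, Timm9 and Timm10 were the lowest relative to control. These chaperones form a ring of alternating subunits that guides carrier precursors across the intermembrane space. Timm10 read 10.87, 11.12, 10.87 and 10.69 on the log2 scale with scrambled RNA and 10.77, 10.58, 10.59 and 10.58 with DOR siRNA. The groups overlapped by DOR siRNA array 1 alone, and each knockdown array was below the scrambled array of its own number. The difference was -0.26 ± 0.10 (SE, limma adjusted p = 0.215), a 1.20-fold decrease that did not pass. Timm9 read 7.42, 7.73, 7.49 and 7.43 with scrambled RNA and 7.40, 7.35, 7.25 and 7.28 with DOR siRNA. The groups did not overlap, although the arrays numbered 1 were only 0.02 apart. Its difference was -0.20 ± 0.09 (limma adjusted p = 0.302), and a dimmer probe set of the gene gave -0.29 ± 0.10 (limma adjusted p = 0.167).

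The remaining members of that role went both ways, with none called among the 10. Timm10b, which joins the ring to the TIM22 complex, differed by 0.13, Timm8b by 0.11 and Timm13, its partner in a second ring with Timm8a1, by 0.02. Timm22, the channel subunit, differed by -0.05 and Timm29, known from human cells as a further subunit of that complex, by -0.18. Timmdc1 entered by its symbol but is known in human cells as an assembly factor of respiratory complex I, and it differed by -0.13. Timm8a2 had means of 2.57 and 2.59, far under the median of all values, and was not shown to be above background.

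Of the 3 chaperones, none called, Hspa9 had the smallest p. This gene encodes mitochondrial Hsp70, the motor that draws precursors into the matrix. It read 12.43, 12.29, 12.28 and 11.90 on the log2 scale with scrambled RNA and 12.00, 12.04, 11.92 and 11.81 with DOR siRNA. Scrambled arrays 1 to 3 lay above all knockdown arrays while scrambled array 4 lay among them, and each numbered pair was lower in the knockdown. The mean went from 12.23 ± 0.22 to 11.94 ± 0.10 (SD, n = 4 each), a difference of -0.28 ± 0.11 (SE). It did not pass (limma adjusted p = 0.238, and 0.084 in the fit that pairs the cultures by number). Its other 4 probe sets differed in the same direction, from -0.55 to -0.03. In the probe set at -0.55, DOR siRNA array 2 read 7.36, against 8.51, 8.53 and 8.61 in the other knockdown arrays. Without scrambled array 4 the difference of Hspa9 was -0.39 ± 0.09 and passed (limma adjusted p = 0.0315), the only member called in that fit, in which 2.63% of all genes were called lower.

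Hspd1 and Hspe1 encode the Hsp60 and Hsp10 subunits of the chaperonin and are transcribed away from each other from a shared promoter. The stretch between their starts is shown because both genes read from it and the pair was compared directly. It holds the 215 bases at chr1:55087933-55088147 (RefSeq, GRCm38.p6, plus strand, 5′ to 3′, reading toward Hspe1). Capitals mark matches to TTCNNGAA, a pair of inverted units of the heat shock element, and to TGCAAT, an element bound by C/EBP factors and CHOP.
Hspd1-Hspe1: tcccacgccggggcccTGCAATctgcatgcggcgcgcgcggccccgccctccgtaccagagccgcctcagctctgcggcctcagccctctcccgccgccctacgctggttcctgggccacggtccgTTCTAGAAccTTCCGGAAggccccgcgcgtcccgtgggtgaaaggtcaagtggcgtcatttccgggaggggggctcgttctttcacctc
Searched on both strands, TTCNNGAA matched 2 times and TGCAAT 1 time, with no overlap between matches. The 215 bases before the transcription start were also searched in the 32851 promoter windows of the RefSeq table. At least 1 match to the first was held by 6.11% of windows and to the second by 6.2%. The share holding the first 2 times is not given here. The table lists a second start of Hspd1 on the far side of the Hspe1 start, at position 55088243, so the stretch borders only one of its listed starts. A match of letters is no evidence that a factor is bound here.

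Neither chaperonin gene was called. Hspd1 read 12.01, 11.87, 11.99 and 11.93 on the log2 scale with scrambled RNA and 11.82, 11.94, 11.87 and 11.98 with DOR siRNA, which overlapped fully. Its difference was -0.05 ± 0.07 (SE, limma adjusted p = 0.855), with a 95% interval from -0.21 to 0.11. Hspe1 read 11.47, 11.78, 11.82 and 11.99 with scrambled RNA and 11.90, 11.78, 11.79 and 12.02 with DOR siRNA, where scrambled array 1 was the lowest of all 8. Its difference was 0.11 ± 0.11 (limma adjusted p = 0.739). The log2 difference between Hspd1 and Hspe1 within an array shifted by -0.16 between the groups, which an exact two-sided permutation test over the 8 arrays did not separate from 0 (p = 0.314, and 0.771 adjusted over 9 gene pairs).

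The proteases of the matrix were not called, and Lonp1 had the widest spread of any member. Lonp1, the ATP-dependent LON protease, read 10.22, 10.40, 9.91 and 9.27 on the log2 scale with scrambled RNA and 9.64, 10.10, 9.33 and 9.29 with DOR siRNA. The arrays numbered 4 were the lowest of their groups and the arrays numbered 2 the highest, so the values ordered by replicate number as much as by treatment. Its difference of -0.36 ± 0.24 (SE) was the largest in size among the members, with an SD of 0.50 among the scrambled arrays, and did not pass (limma adjusted p = 0.557, and 0.0968 in the fit that pairs the cultures by number). It was -0.59 ± 0.19 without scrambled array 4 and -0.21 ± 0.24 without scrambled array 2, not called either way (limma adjusted p = 0.119 and 0.8). Clpp, the proteolytic chamber that works with the unfoldase ClpX, read 10.27, 10.42, 10.10 and 9.96 with scrambled RNA and 10.27, 10.02, 10.10 and 9.95 with DOR siRNA. The arrays numbered 1, 3 and 4 gave nearly the same value in both groups, and the difference of -0.10 ± 0.11 (limma adjusted p = 0.765) came from those numbered 2.

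The porins, which let metabolites cross the outer membrane, each had a difference below 0 and none was called. Vdac3 read 12.64, 12.69, 12.53 and 12.13 on the log2 scale with scrambled RNA and 12.41, 12.41, 12.19 and 12.12 with DOR siRNA. Scrambled arrays 1 to 3 lay above the knockdown arrays and scrambled array 4 among them, as for Hspa9. Its difference was -0.21 ± 0.13 (SE, limma adjusted p = 0.487), and -0.34 ± 0.10 without scrambled array 4, again not called (limma adjusted p = 0.0863). Vdac2 read 12.97, 13.06, 13.00 and 13.01 with scrambled RNA and 13.00, 12.78, 13.01 and 12.92 with DOR siRNA, with overlap and a difference of -0.08 ± 0.08 (limma adjusted p = 0.693). Vdac1 differed by -0.06 ± 0.08 (limma adjusted p = 0.796). No shift between 2 of the porins within an array was separated from 0, with exact permutation p from 0.371 to 0.743.

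**Figure D2:**
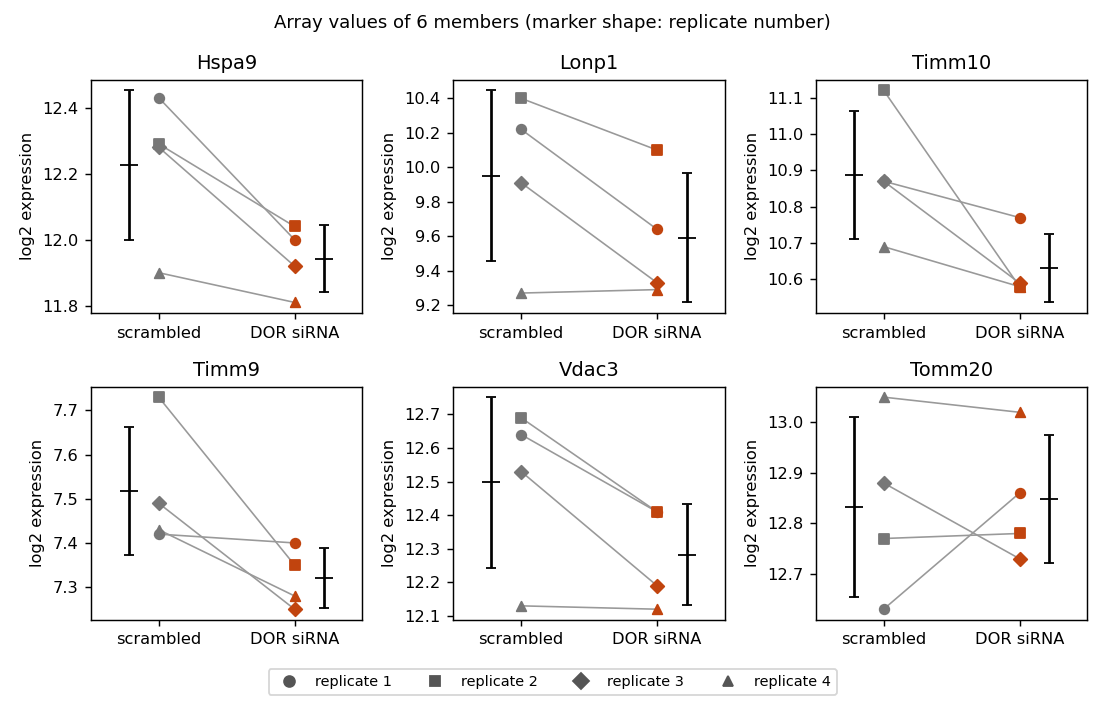
Log2 expression (vertical axes, each with its own range) of 6 members in each array of the scrambled and DOR siRNA groups. Marker shape gives the replicate number, grey lines join arrays of the same number, and the bars beside the points are the mean and SD of 4 arrays. For Hspa9 and Vdac3 the scrambled array numbered 4 lies among the knockdown arrays, for Lonp1 it lies just below them, and for Tomm20 the arrays numbered 4 are the highest in both groups.

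The adenine nucleotide carriers exchange ADP for ATP across the inner membrane, Slc25a4 being the isoform of heart and skeletal muscle and Slc25a5 the widely expressed one. Slc25a4 held the only called probe set of any member. By its brightest probe set it read 12.90, 12.93, 12.95 and 13.01 on the log2 scale with scrambled RNA and 13.08, 13.04, 13.11 and 13.09 with DOR siRNA. The knockdown values all lay above the scrambled ones, but the difference was only 0.13 ± 0.07 (SE, a 1.10-fold increase) and did not pass (limma adjusted p = 0.386), while the scrambled and knockdown SDs were 0.04 and 0.03. The third of its 4 probe sets by brightness read 11.39, 11.33, 11.23 and 11.59 with scrambled RNA and 11.79, 11.94, 11.82 and 11.88 with DOR siRNA. Here too the groups did not overlap. This probe set rose by 0.47 ± 0.09, or 1.38-fold (limma adjusted p = 0.0189), the 1 called of 80 member probe sets, a share of 1.25% where 3.22% of all probe sets were called and 2.04% were called higher. It lost the call without scrambled array 1, 2 or 3 or DOR siRNA array 3, with differences of 0.42 to 0.48 and limma adjusted p from 0.0525 to 0.062. The other 2 probe sets of Slc25a4 differed by 0.09 and 0.19 without passing, and which part of the transcript each one reads is not given in the sources used here.

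No probe set of Slc25a5 was called. Its brightest probe set read 13.09, 13.09, 13.01 and 13.00 on the log2 scale with scrambled RNA and 13.11, 12.87, 13.03 and 12.95 with DOR siRNA, with overlap. The difference was -0.06 ± 0.08 (SE, limma adjusted p = 0.823), and all 8 of its probe sets lay between -0.07 and -0.02. Most of these carry the suffix that Affymetrix gives to probe sets able to bind more than 1 transcript, so they are not independent. The log2 value of Slc25a4 minus that of Slc25a5 in the same array, which compares probe sets and not amounts of RNA, went from -0.10 ± 0.09 to 0.09 ± 0.09 (SD, n = 4 each). This shift of 0.19 had the smallest p of the 9 gene pairs, at 0.0571 by the exact two-sided permutation test and 0.514 after adjustment. The shift was above 0 in all 4 numbered pairs, at 0.16, 0.33, 0.14 and 0.12, and the exact test that flips signs within pairs, added after the data were seen, gave p = 0.125, the smallest that 4 pairs allow. With 4 arrays against 4 the unpaired test cannot go below 0.0286, and at least 6 of the 9 pairs would have to reach that value to pass.

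**Figure D3:**
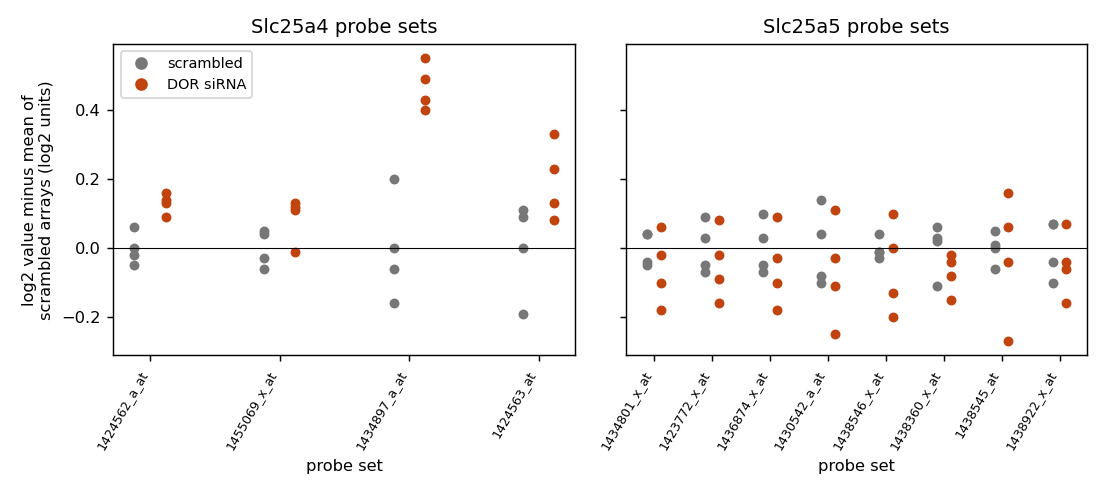
Every probe set of Slc25a4 (left) and Slc25a5 (right), ordered from bright to dim. Points are the 4 scrambled and 4 DOR siRNA arrays as log2 values minus the mean of the scrambled arrays for that probe set. The third probe set of Slc25a4 stands apart with a difference of 0.47, while the 8 probe sets of Slc25a5 lie between -0.07 and -0.02.

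Other genes of the same system were read from a wider list of import, folding, processing and carrier genes, 39 of 43 being measured. Of these 1 rose, 0 fell and 38 did not pass, a share called higher of 2.56% beside the 3.11% of all genes, with a median difference of -0.0131 and a range from -0.33 to 0.59. At an unadjusted p under 0.05 there were 4 higher and 2 lower, 10.3% and 5.13%, beside 11.5% and 6.55% of all genes. These shares were close to those of all genes. The gene that rose was Slc25a1, the mitochondrial citrate carrier, whose exported citrate feeds fatty acid and sterol synthesis. Its values were 8.67, 8.68, 8.68 and 8.62 with scrambled RNA and 9.30, 9.45, 9.18 and 9.09 with DOR siRNA, wholly apart, a rise of 0.59 ± 0.09 (SE, 1.51-fold, limma adjusted p = 0.00607). Mtx1, a metaxin that helps insert proteins in the outer membrane, had the next smallest p. It gave 10.52, 10.51, 10.27 and 10.30 with scrambled RNA and 10.65, 10.64, 10.72 and 10.58 with DOR siRNA, again without overlap but not called (0.25 ± 0.08, limma adjusted p = 0.155). Partners of the members above, chosen after their values were seen, were not called: Grpel1, the nucleotide exchange factor of mitochondrial Hsp70 (-0.09), Clpx, the unfoldase of Clpp (-0.22), and Dnaja3, a mitochondrial Hsp40 (-0.33 ± 0.18, limma adjusted p = 0.43).

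The median difference was smallest in size when 1 control array, scrambled array 2, was left out. Scrambled array 2 held the highest of the 8 values for 18 of the 34 members, 52.9%, and the lowest for 0, whereas it held the highest value of 17.5% of all genes. In that array 29 of the 34 members lay above their own mean over 8 arrays, and the median deviation of all 34 was 0.121 log2 units. DOR siRNA array 1 came next, with 25 members above their mean, and DOR siRNA array 4 had the fewest, with 9. Leaving out scrambled array 2 took the median difference of the members from -0.054 to -0.0257 and the number below 0 from 23 to 20. That is 58.8%, beside 44.2% of all genes in the same fit. The median was also smaller in size without scrambled array 1 (-0.0358) or 3 (-0.0479) or DOR siRNA array 2 (-0.0405), 3 (-0.0381) or 4 (-0.0494). It was larger without DOR siRNA array 1 (-0.0607). Without scrambled array 4 the median was -0.0748, the largest in size of the 8 such fits. No measure of RNA quality was used here, and the part of scrambled array 2 in the values was not tested.

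The same array was highest for other mitochondrial genes as well. It held the highest value of 77.6% of 76 mitochondrial ribosomal protein genes, chosen by symbols beginning Mrpl or Mrps, and of 81.8% of 44 genes with symbols beginning Nduf, mostly subunits and assembly factors of complex I. Without it their median differences went from -0.0357 to 0.0421 and from -0.0917 to -0.021. The ribosomal protein median was also above 0, at 0.00311, without DOR siRNA array 4. None of the genes in either group was called by limma over all 8 arrays. At an unadjusted p under 0.05 there were 1 higher and 2 lower ribosomal protein genes, 1.32% and 2.63%, and 0 higher and 5 lower Nduf genes, the latter 11.4%, beside 11.5% of all genes higher and 6.55% lower. Pairing the cultures called 1 Nduf gene lower, 2.27% where that fit called 8.25% of all genes. These are counts over genes that share the array, not tests of a difference between the gene groups.

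**Figure D4:**
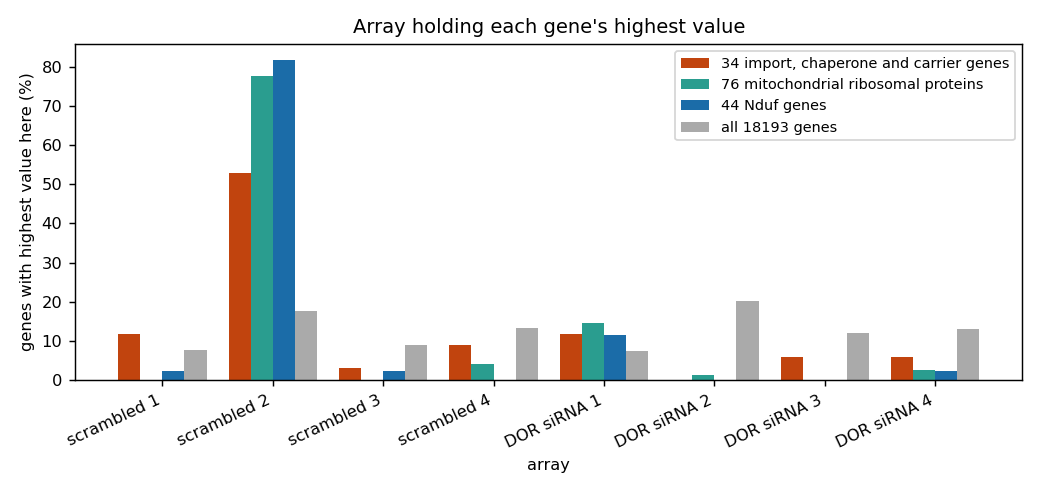
Share of genes (vertical axis, percent) whose highest value over the 8 arrays lies in the array named on the horizontal axis, for the 34 members, the mitochondrial ribosomal proteins, the Nduf genes and all genes. Scrambled array 2 holds 52.9% of the members, 77.6% of the ribosomal proteins and 81.8% of the Nduf genes, against 17.5% of all genes.

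Within the group, the members did not follow scrambled array 2 alike. Timm10, Timm29, Timm9, Timmdc1 and Lonp1 were among those at their highest there, while Tomm20, Hspd1, Hspe1 and Slc25a4 were not. Hspe1 and Tomm20 were lowest in scrambled array 1, in which Hspa9 was at its highest. Counted by replicate number, 5 members were lower in the knockdown in all 4 pairs, which were Hspa9, Timm10, Timm9, Tomm70a and Vdac3, a share of 14.7% where 12.5% of all genes did so. One member, Slc25a4, was higher in all 4 pairs, 2.94% against 18.1% of all genes. The groups did not overlap for 3 members, Slc25a4 upward and Timm9 and Tomm70a downward, a share of 8.82%. Of all genes 12.2% did not overlap, 8.1% upward and 4.13% downward.

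**Figure D5:**
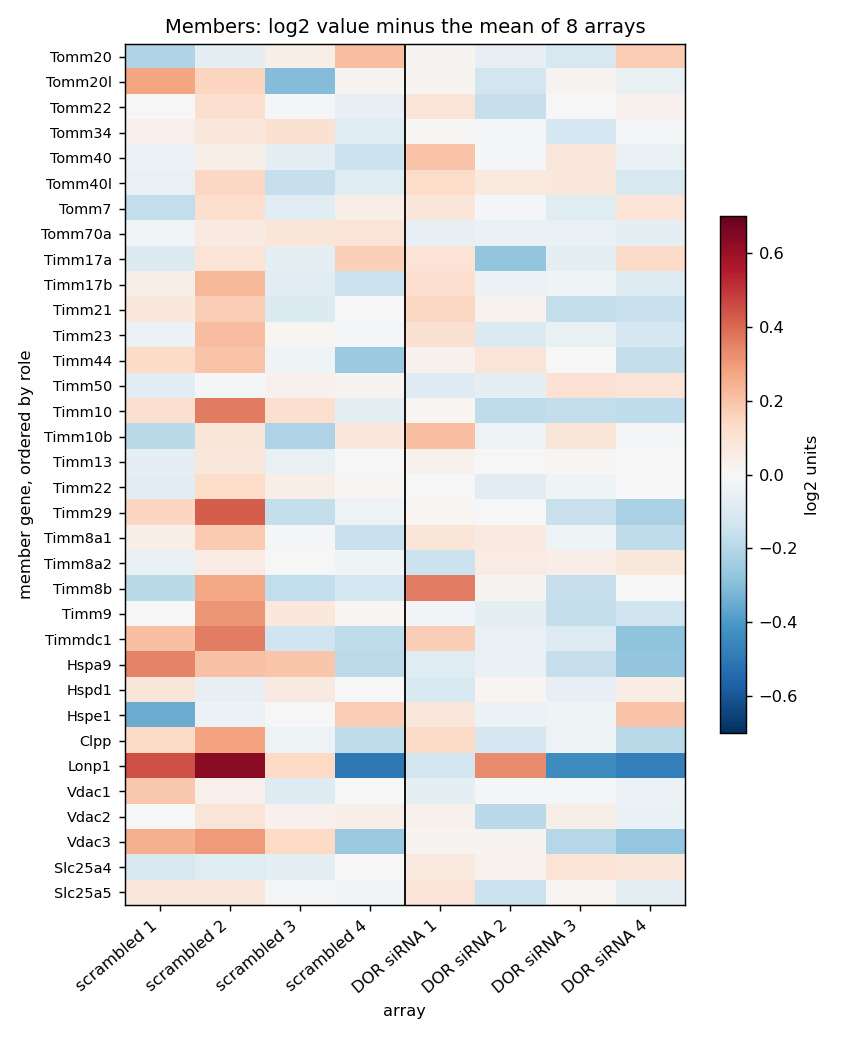
Log2 value of each member minus its mean over the 8 arrays, as colour from -0.7 (blue) to 0.7 (red) log2 units, with genes in rows by role and arrays in columns. The column of scrambled array 2 is above the mean for 29 of 34 genes, and Lonp1 shows the widest range.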

How the data were processed

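Per the labels' protocols, 25 ng of total RNA from each culture was amplified before 1-colour hybridisation on Affymetrix arrays. The authors deposited 1 log2 value for each probe set on each array, and the submitters' processing notes name RMA. That method equalises the arrays' distributions, so a shift shared by all transcripts would be lost. Its version is not given in the sources used here. Array medians ran from 6.14 to 6.20 and correlations between arrays from 0.988 to 0.997, and the number of arrays limits the precision.

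The 64 control probe sets were left out and 45037 tested. The annotation gives 1 symbol to 34945 probe sets, several to 932 and none to 9160. Those with several named no gene, 3 of them holding a Tomm symbol. The identifiers of all 34 members matched RefSeq. The group difference was fitted by lmFit and eBayes (limma 3.58.1, R 4.3.3) with no covariate and Benjamini-Hochberg adjustment over all probe sets, and gene pairs with exact permutation tests in scipy 1.17.1. Figures used matplotlib 3.10.9. On simulated data of 45037 probe sets, 200 of them changed, 4.13% of calls were false.

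Every member may be named. Values per array are given for members with a called probe set, for the 2 of smallest p in each role, and also for Tomm20 and Hspd1, which were chosen after their values were seen. Members, lists and tests were chosen with earlier results of these data known. Same-numbered arrays deviated from their group means together (r from 0.142 to 0.468 over all probe sets, each pair above 0.1). Calls come from the fit without pairs unless pairing is named, and pairing by number was run beside it. Arrays of different number ran from -0.394 to 0.265, some of them above same-numbered ones, so the pairing is a hint from the data and not a label. Alternatives were pairing, another variance prior, cyclic loess, a filter on dim probe sets, averaging a gene's probe sets and leaving out each array.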

Additional observations from a re-analysis of the deposited data

Results flagged for a closer look

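A single array stood far from the other 3 of its group, by Dixon's criterion for 4 values, in 3 of 72 groups of values examined, and chance gives about 1 in 20. Timm10 read 10.77 in DOR siRNA array 1 against 10.58 to 10.59 in the other knockdown arrays. Timm8a2 read 2.43 in DOR siRNA array 1 against 2.63 to 2.66, at a level not shown to be above background. Timm8b read 10.29 in scrambled array 2 against 9.83 to 9.90 in the other scrambled arrays.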

How the results depend on the processing

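The number of members called was 0 in either direction under every alternative run except that without scrambled array 4, where 1 was lower, Hspa9 (-0.39). With the replicate number as a block, which pairs the cultures, 1562 probe sets of the whole array were higher and 1265 lower in place of 917 and 535. Pairing changed no call among the members or the wider list, and the calls it changed among markers and Nduf genes are given with them. For the gene pairs the paired exact test cannot go below p = 0.125, so it could call none whatever the values. Leaving out 1 array gave 377 to 1299 probe sets higher and 197 to 1011 lower, the lowest being without scrambled array 3 and scrambled array 1. The median difference of the members ran from -0.0748 to -0.0257 over those 8 fits and was -0.0576 with cyclic loess and -0.039 with the mean over probe sets. No sign of a member's difference changed with pairing, the variance prior, cyclic loess, the dim filter or the mean over probe sets. Leaving out 1 array turned the sign of 11 small, uncalled differences, which then ran from 0.0 to 0.05 for Timm13, -0.11 to 0.03 for Timm17a, -0.07 to 0.06 for Timm17b, -0.11 to 0.04 for Timm44, -0.01 to 0.05 for Timm50, -0.09 to 0.03 for Timm8a1, -0.01 to 0.07 for Timm8a2, -0.05 to 0.09 for Tomm20, -0.19 to 0.01 for Tomm20l, -0.05 to 0.03 for Tomm22 and -0.01 to 0.09 for Tomm7. So did 3 gene pairs, with shifts of -0.12 to 0.06 for Timm17a over Timm17b, -0.06 to 0.22 for Tomm20 over Tomm20l and -0.03 to 0.09 for Vdac1 over Vdac2. The cause was not tested. Trp53inp2 kept its call throughout, with -0.85 as the mean over its probe sets. Dim probe sets such as those of Timm8a2 and Tomm20l limit what can be read from those genes, since no detection calls were used here.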
